A study of Mus musculus with 4 samples.

Results

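Cells named epithelial were found among sorted CD45-positive cells of 4T1 mouse mammary tumours, and they are described here by their transcripts. The members were the barcodes to which the deposited annotation gave the name epithelial, written there with the keratin gene Krt18 in brackets, and which had a column in the count table. There were 605 such cells of 16383 with counts, 499 of 13162 with barcode suffix 1 and 106 of 3221 with barcode suffix 2. The 4T1 line is a carcinoma line derived from BALB/c mammary tissue, and Mif-depleted (sgMif) or wild-type (CON) 4T1 cells formed the tumours in BALB/c mice. Mif encodes macrophage migration inhibitory factor. Each of the 2 groups had 2 samples, each sample combined 3 dissociated tumours, and CD45-positive cells that excluded propidium iodide were sorted before droplet sequencing. No label ties a suffix to a sample, so Mif-depleted and wild-type tumours were not compared, and the suffixes are given apart as libraries of unknown group. The age of the mice is not given in the sources used here.

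Carcinoma cells of a mammary tumour keep parts of the epithelial programme of their tissue of origin, in which cells are tied to each other by junctions and to a laminin-rich basement membrane by integrins. CD45, the phosphatase encoded by Ptprc, is carried by leukocytes and not by epithelial cells. The 4T1 line is known for rapid growth, metastasis and strong recruitment of myeloid cells.

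Counts covered 4099 genes on chromosomes 1 to 4 and part of chromosome 5, so Krt18, Epcam and Cdh1 were not analysed here. Levels were computed within a suffix by pooling all cells of a name and dividing a gene's unique molecular identifiers (UMIs, counted molecules) by all counted UMIs, times 10000. Brackets hold exact 95% intervals, which cover counting error only, since cells are not replicates and each suffix is 1 library. A gene was called higher or lower where it had 50 or more UMIs over both sides and the interval of the ratio lay wholly beyond 2-fold. Epithelial cells held 1217121 UMIs in suffix 1 and 434368 in suffix 2, with medians of 826 and 3378 per cell, against 1247 and 1703 in all other cells. No barcode sequence was shared between the epithelial cells of suffixes 1 and 2, among 35 sequences that the suffixes share in the annotation. How the authors named the cells is not known here and measured genes may have entered, so all values describe the named cells, and no test was run.

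Epithelial cells made up 3.79% [3.47, 4.13] of the annotated barcodes of suffix 1, 3.50% [3.18, 3.85] of suffix 2, 2.03% [1.75, 2.34] of suffix 3 and 2.23% [1.97, 2.52] of suffix 4. The shares of suffixes 1 and 2 lay above those of suffixes 3 and 4. The intervals did not overlap, but they cover counting error only and not the spread between libraries. The shares came from 499, 419, 189 and 253 cells, 1360 of 45781 annotated barcodes in all. All 499 cells of suffix 1 had counts, and 106 of the 419 of suffix 2, or 25.3%.

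**Figure D1:**
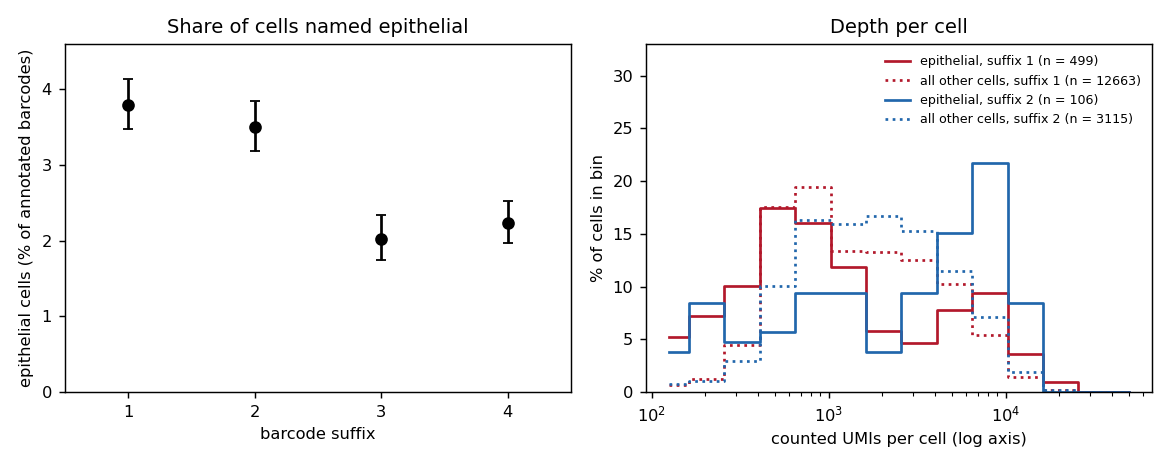
Left, share of annotated barcodes named epithelial (y axis, percent) in each of the 4 barcode suffixes, with exact binomial 95% intervals, and right, counted UMIs per cell (x axis, log scale) against the percent of cells in each bin, for epithelial cells (solid) and all other cells (dotted) of suffixes 1 and 2. The shares lie at 3.79% and 3.50% in suffixes 1 and 2 and at 2.03% and 2.23% in suffixes 3 and 4, and the epithelial cells form a shallow and a deep peak.

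The promoter windows of 3 of the genes highest in epithelial cells are shown, Wfdc2 because it marks the cells and Cgn and Sfn because they hold a match. Wfdc2 encodes a secreted protease-inhibitor-like protein, Cgn the tight junction protein cingulin and Sfn the epithelial adaptor stratifin. Each runs from 250 bases before to 50 after a RefSeq transcript start on GRCm38.p6, 5′ to 3′ on the gene's strand. The windows lie at chr2:164562465-164562764 on the plus strand, chr3:94786433-94786732 on the minus strand and chr4:133602119-133602418 on the minus strand. Capitals mark a match to AACNGGTT or its reverse complement AACCNGTT, the letters bound by Grainyhead-like factors, which are known regulators of epithelial genes.
Wfdc2: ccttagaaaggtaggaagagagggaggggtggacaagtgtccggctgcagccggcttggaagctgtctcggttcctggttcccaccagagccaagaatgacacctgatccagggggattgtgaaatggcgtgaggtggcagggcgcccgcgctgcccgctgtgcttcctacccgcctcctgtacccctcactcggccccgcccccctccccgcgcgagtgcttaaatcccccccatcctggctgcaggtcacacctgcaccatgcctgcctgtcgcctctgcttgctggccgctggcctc
Cgn: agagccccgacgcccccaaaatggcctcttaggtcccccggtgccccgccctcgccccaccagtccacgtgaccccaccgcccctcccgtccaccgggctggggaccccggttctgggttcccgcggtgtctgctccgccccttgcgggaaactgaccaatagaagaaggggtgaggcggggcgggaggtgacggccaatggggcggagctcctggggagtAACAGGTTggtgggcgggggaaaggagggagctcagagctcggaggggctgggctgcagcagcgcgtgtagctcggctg
Sfn: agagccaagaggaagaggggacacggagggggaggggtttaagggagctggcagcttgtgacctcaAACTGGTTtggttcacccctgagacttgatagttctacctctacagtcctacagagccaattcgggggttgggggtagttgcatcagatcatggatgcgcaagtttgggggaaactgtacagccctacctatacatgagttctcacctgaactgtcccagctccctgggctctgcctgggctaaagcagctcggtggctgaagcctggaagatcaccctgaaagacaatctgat
The Wfdc2 window held no such match, and those of Cgn and Sfn held 1 each. Of the 24 genes named by rule as highest in epithelial cells, 20 had a window, and 3 of them held these letters in at least 1 window (Cgn, Sfn and Tnnt2), against 2.09% of all 32851 windows, of which a gene can have several. The AP-1 letters TGANTCA were in 3 of the 20 genes and 7.81% of all windows, the TEAD letters GGAATG or CATTCC in 4 and 14.7%, and the TATA letters TATAAA or TTTATA in 0 and 13.6%. Both strands were searched, and a match is not a measured binding site.

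The marker genes set for the type were near absent from every other name. Wfdc2 stood at 99.6 [97.8, 101] in epithelial cells of suffix 1 and 121 [117, 124] in those of suffix 2, against 0.183 and 0.215 in all other cells, with log2 ratios of 9.09 [8.96, 9.22] and 9.13. The highest of the other 22 names reached 0.731 in suffix 1 and 7.48 in suffix 2. Gpa33, a cell surface antigen known from intestinal epithelium, had 483 and 177 UMIs in epithelial cells, against 14 and 6 in all other cells, with log2 ratios of 9.65 and 9.11. Fermt1, kindlin-1, which activates integrins in epithelial cells, had 337 and 95 UMIs, against 7 and 1, with log2 ratios of 10.13 and 10.80. A Wfdc2 UMI was found in 417 of 499 epithelial cells of suffix 1, 83.6% [80.0, 86.7], and in 95 of 106 of suffix 2, 89.6%, against 2.07% and 2.05% of neutrophils. With each cell thinned to 500 UMIs the shares were 84.3% and 91.7% in epithelial cells, against 0.878% and 0.640% in neutrophils, leaving out 156 and 22 epithelial cells below that depth. Of the 14 markers set for the type only these 3 were among the measured genes. All 3 were called higher in both suffixes, beside 16.9% of all genes in suffix 1 and 8.75% in suffix 2.

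Ptprc was lower in epithelial cells than under any other name although the sort selected for its protein. It stood at 2.34 [2.08, 2.63] in suffix 1 and 1.38 [1.05, 1.78] in suffix 2, against 21.1 and 18.8 in all other cells, where the lowest other name, fibroblasts in both suffixes, had 3.55 [3.04, 4.11] and 1.88 [1.31, 2.62], an interval that overlaps that of epithelial cells in suffix 2. All 9 measured pan-leukocyte genes were called lower in both suffixes, beside 12.1% and 11% of all genes. The 9 had a summed level of 26.6 and 17.4 in epithelial cells, against 223 and 231 in all other cells. A Ptprc UMI was found in 83 of 499 epithelial cells, 16.6%, and in 19 of 106, 17.9%, against 29.3% and 29.8% of fibroblasts. After thinning the shares were 8.16% [5.49, 11.6] and 4.76% in epithelial cells, 11.5% and 10.8% in fibroblasts, which also lack CD45, and 69.8% and 66.5% in neutrophils. The epithelial shares did not exceed those of fibroblasts, and the source of these UMIs was not tested.

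The 83 epithelial cells of suffix 1 with a Ptprc UMI had a median of 5036 counted UMIs, against 706 in the 416 without. Wfdc2 stood at 78.7 in the cells with a Ptprc UMI and 112 in those without, and S100a8, a calprotectin subunit of neutrophils, at 235 and 13.2. In suffix 2 the 19 cells with a Ptprc UMI had 102 for Wfdc2 and 5.72 for S100a8, against 128 and 27.3 in the 87 without, where 2 cells held 738 of the 862 S100a8 UMIs. Other leukocyte transcripts were higher in the cells with a Ptprc UMI in both suffixes. The lymphocyte and myeloid surface gene Cd52 stood at 14.3 and 14.9 in the cells with a Ptprc UMI, against 1.60 and 1.05 in those without, and the leukocyte tetraspanin gene Cd53 at 4.33 and 3.45, against 0.502 and 0.349. Laptm5, a lysosomal protein of blood cells, stood at 6.92 and 9.09, against 0.660 and 0.697, and the complement gene C1qa at 11.03 and 11.5, against 2.97 and 1.08. Calprotectin UMIs (S100a8 and S100a9) were in 492 of 499 and 94 of 106 epithelial cells, and after thinning in 76.4% and 44.0%, against 76.9% and 43.2% of fibroblasts. Only 19 cells of suffix 1 and 2 of suffix 2 held 50 or more such UMIs, and 1 cell held 17.4% and 40.6% of them. In the 480 cells of suffix 1 with fewer, Wfdc2 stood at 103 and Ptprc at 1.73. A UMI of the macrophage complement genes C1qa, C1qb or C1qc was in 26.8% and 11.9% of thinned epithelial cells, against 26.2% in neutrophils of both suffixes, and 7 cells and 1 cell held 50 or more. All measured markers of neutrophils (7), macrophages (5), T cells (6) and B cells (5) were called lower than in all other cells in both suffixes. Over all genes, 12.1% were called lower in suffix 1 and 11% in suffix 2. With neutrophils left out of the other cells, 4 of the 7 neutrophil markers were still called lower in suffix 1, beside 536 of 3441 genes. The summed level of those 7 was 218 and 49.96 in epithelial cells, against medians of 196 and 65.5 over the other names, rank 11 and 12 of 23. No doublet caller was run.

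**Figure D2:**
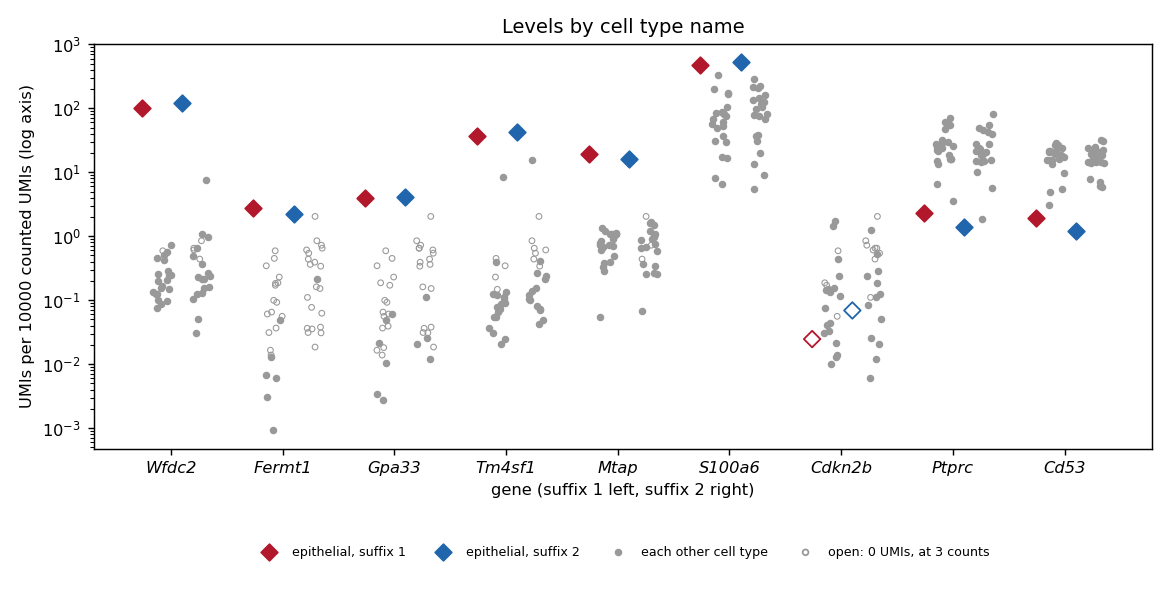
Level of 9 genes (y axis, UMIs per 10000 counted UMIs, log scale) in epithelial cells (diamonds) and in each of the other 22 cell type names (grey points), suffix 1 at the left and suffix 2 at the right of each gene, with open symbols for 0 UMIs drawn at the level of 3 counts. Epithelial cells are highest for Wfdc2, Fermt1, Gpa33, Tm4sf1, Mtap and S100a6 and lowest for Ptprc and Cd53 in both suffixes.

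Against all other cells of suffix 1, 593 of 3514 genes with enough UMIs were called higher in epithelial cells (16.9%) and 424 lower (12.1%), with a median log2 ratio of 0.29 over all genes tested. In suffix 2, 270 of 3087 were called higher (8.75%) and 339 lower (11%), with a median of 0.00, and 251 and 301 genes were called the same way in both suffixes, with 0 called in opposite directions. The split depends on the calprotectin genes, since S100a8 stood at 97.1 in epithelial cells against 1085 in all other cells of suffix 1, and S100a9 at 115 against 1412. With S100a8 and S100a9 left out of both totals, 393 genes were called higher and 584 lower in suffix 1, and the median moved to -0.09, so ratios near this shift are not read as directions. With neutrophils left out of the other cells, which was chosen after seeing the data, 345 were higher and 536 lower.

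**Figure D3:**
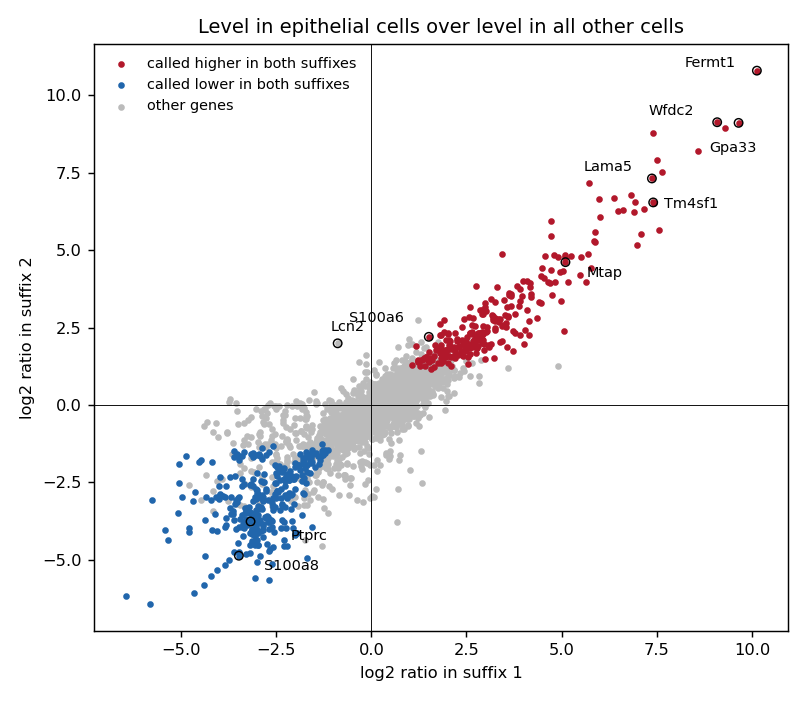
Log2 ratio of the level in epithelial cells over that in all other cells, suffix 1 (x axis) against suffix 2 (y axis), for the 3083 genes with 50 or more UMIs in both suffixes. Red marks the 251 genes called higher and blue the 301 called lower in both suffixes, and Lcn2 lies at -0.89 in suffix 1 and 1.99 in suffix 2.

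The genes furthest above the other cells were epithelial regulators, junction and adhesion genes, and some not usually linked to epithelium. Elf3, an epithelial ETS-family transcription factor, stood at 0.633 and 0.506 in epithelial cells, against 0.00141 and 0.00368 in all other cells. Esrp1, a splicing factor that sets epithelial isoforms, stood at 0.444 and 0.530, against 0.000705 and 0.00123. Serpinb5, the serpin maspin, stood at 0.698 and 0.668, against 0.00106 and 0.00491. Elf3 rested on 77 and 22 UMIs and Esrp1 on 54 and 23, and neither these nor Serpinb5 had the 50 UMIs needed for a call in suffix 2. Sfn had 12.8 and 6.65 in epithelial cells, against 0.0903 and 0.0823. Npnt, nephronectin, an integrin ligand of the basement membrane, had 5.94 and 2.95, against 0.0317 and 0.0589. Both genes were higher in suffix 1 than in suffix 2 and far above the other cells in each. Of 16 measured genes of epithelial identity, a list that holds the 3 markers, 10 of 12 tested were called higher in suffix 1 and 8 of 9 in suffix 2. None was lower, and the median log2 ratios were 7.04 and 6.34. Over all genes, 16.9% and 8.75% were called higher.

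Tnnt2, cardiac troponin T, stood at 9.28 [8.75, 9.84] and 9.32 [8.44, 10.3] in epithelial cells, against 0.0243 and 0.0319 in all other cells, with log2 ratios of 8.58 and 8.19. It was found in 266 of 499 and 73 of 106 epithelial cells, and its most laden cell held 3.98% and 8.64% of its UMIs, so it did not rest on a few cells. Il24, a cytokine of the interleukin-10 family, had 187 and 53 UMIs, against 7 and 2, from 48 and 17 cells. Dmrta2, a transcription factor known from the developing brain, had 94 and 27 UMIs, against 10 and 6. Nppb, the precursor of brain natriuretic peptide, had 42 and 63 UMIs, against 3 and 1, a level of 0.345 in suffix 1 and 1.45 in suffix 2. Bdnf, a neurotrophin, stood at 1.46 and 1.77 in epithelial cells, and the highest other name at 0.912 and 0.753. Tm4sf1, a tetraspanin-like surface protein of carcinoma cells, stood at 37.5 and 42.3, against 0.221 and 0.454, with fibroblasts second at 8.56 and 15.7. Nppb is a list member, Bdnf was chosen after its values were seen, and the others came from the naming rule.

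Msmp, which encodes a microseminoprotein, shows how single cells can carry a level. It had 183 UMIs in suffix 1 from 11 epithelial cells, and 148 of them, 80.9%, came from 1 cell. Without that cell its level was 0.289 in suffix 1, and suffix 2 had 0 UMIs, where the exact interval of the level reached up to 0.0849. Msmp was picked after its values were seen. Among the named genes, leaving out the cell with most UMIs of the gene moved the log2 ratio of Wfdc2 to 9.06, of Gpa33 to 9.62, of Fermt1 to 10.07 and of Il24 to 9.08 in suffix 1.

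Genes that tie epithelial cells to each other and to the basement membrane were higher on the whole. Of 10 tested genes of laminins, integrins and hemidesmosomes, 8 were called higher in both suffixes and 0 lower, with median log2 ratios of 2.82 and 2.63. Over all genes, 16.9% were called higher and 12.1% lower in suffix 1, and 8.75% and 11% in suffix 2. With calprotectin left out of the totals, 7 were higher and Cd44 lower in suffix 1. Against fibroblasts, 4 of 10 were called higher and 2 lower in suffix 1, beside 7.13% and 11.3% of all genes in that comparison. In suffix 2, 3 and 1 of 10 were, beside 5.26% and 10.2%. The summed level was 33.2 and 38.6 in epithelial cells, against 32.1 and 33.1 in fibroblasts. Epithelial cells ranked 4 of 23 names for this sum in both suffixes. Lama5, a laminin alpha chain, stood at 3.57 and 3.91, against 0.0215 and 0.0246. Lamb3, a laminin beta chain, stood at 1.46 and 1.29, against 0.269 and 0.187, and the integrin chain Itga6, a laminin receptor, at 4.27 and 3.36, against 0.903 and 0.809. Dst, which anchors keratins at hemidesmosomes, Hspg2 (perlecan) and Agrn (agrin) were called higher in both suffixes. Itgav and the hyaluronan receptor Cd44 were not, with Cd44 at 7.27 and 10.6 in epithelial cells and 14.4 and 14.9 in all other cells. Of 10 tested junction and polarity genes, 7 were called higher in suffix 1 and 4 of 6 in suffix 2, among them the p120 catenin Ctnnd1 at 3.37 and 3.36, against 0.601 and 0.804. Against fibroblasts, 5 of 7 tested junction and polarity genes were called higher in suffix 1 and 2 of 3 in suffix 2, with 0 lower. Over all genes in that comparison, 7.13% and 5.26% were called higher.

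Several small calcium-binding S100 proteins, which lie together on chromosome 3, had high levels in these cells. S100a6 stood at 475 [471, 479] and 522 [515, 529] in epithelial cells, above the next name, neutrophils, at 333 and 286. S100a10, the partner of annexin A2, stood at 97.4 and 88.5, against 22.6 and 37.0 in all other cells. S100a14 stood at 0.871 and 1.36, against 0.00776 and 0.0123, and S100a16 at 3.06 and 2.99, against 0.138 and 0.166. The highest other name stood above epithelial cells for S100a10, at 117 and 127, and for S100a16, at 7.24 and 6.73. Epithelial cells ranked 2 and 3 for S100a10 and 2 in both suffixes for S100a16. S100a6, S100a10, S100a14 and S100a16 were called higher in both suffixes and with calprotectin left out of the totals. S100a4, known from metastatic and mesenchymal cells, stood at 66.1 and 78.3, against 31.5 and 87.9, so it was called higher in suffix 1 alone and lay below the other cells in suffix 2. Of 12 measured members, 6 were called higher in suffix 1 and 4 of 9 tested in suffix 2, where 16.9% and 8.75% of all genes were. The calls of S100a4 and S100a1 in suffix 1 ended with calprotectin left out of the totals.

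Genes of mesenchymal transition were mixed, in suffix 1 in shares near those over all genes. Fn1, fibronectin, stood at 58.7 and 76.2, against 28.1 and 31.3 in all other cells, and Snai1, a repressor of epithelial genes, at 2.56 and 1.63, against 0.467 and 0.436. Id3, a target of bone morphogenetic protein signalling, stood at 31.4 and 21.8, against 2.72 and 3.44. Zeb2, a repressor also used by myeloid cells, stood at 2.36 and 2.30, against 11.3 and 12.7, and Postn and Pdpn, both known from stroma, were called lower too. The intermediate filament gene Vim, at 111 and 117 against 56.2 and 91.6, passed no call in either suffix. In all, 3 of 13 were higher and 3 lower in suffix 1, and 3 and 4 in suffix 2, where 16.9% and 12.1% of all genes, and 8.75% and 11%, were called. Fn1 was no longer called in suffix 1 with calprotectin left out of the totals. The same held with neutrophils left out of the other cells and in epithelial cells without a C1q UMI. Epithelial cells ranked 7 and 5 of 23 names for Fn1, and the highest other name reached 105 and 153.

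Among secreted factors, Ptges, which makes prostaglandin E2, stood at 1.01 and 1.61, against 0.107 and 0.232, and Bmp7 at 0.444 and 0.414, against 0.00882 and 0.0135. The cytokine genes Il1b and Il1rn were lower, with Il1b at 6.83 and 4.74 in epithelial cells, against 81.0 and 76.4. The myeloid growth factor gene Csf1 passed no call, at 2.36 and 2.23 against 2.51 and 2.53. Of 14 tested members, 4 were called higher and 5 lower in suffix 1, and 2 and 3 in suffix 2, beside 16.9% and 12.1%, and 8.75% and 11%, of all genes. Lcn2, the siderophore-binding lipocalin, stood at 35.8 in epithelial cells against 66.2 in all other cells of suffix 1, with no call, and at 82.2 against 20.7 in suffix 2, called higher. With neutrophils left out of the other cells it was called higher in suffix 1 too, and with calprotectin left out of the totals it was called lower there. In both suffixes neutrophils had the highest Lcn2 level, 151 and 87.6, and neutrophils were 5712 of 12663 other cells in suffix 1 and 925 of 3115 in suffix 2.

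Of 20 measured stem cell and developmental regulators, 7 were called higher and 1 lower in suffix 1, where 16.9% and 12.1% of all genes were. With calprotectin left out of the totals, 6 were higher and 3 lower (Cd44, Notch1 and Cited4). Wnt10a, a Wnt ligand of epithelial appendages, stood at 0.813 and 1.34, against 0.0127 and 0.0196, and Lgr6, an R-spondin receptor of epithelial stem cells, at 0.378 and 0.622, against 0.00564 and 0.00614. Procr, the protein C receptor known from mammary progenitors, stood at 2.66 and 1.52, against 0.336 and 0.549, and the Polycomb gene Bmi1 at 1.504 and 1.54, against 0.362 and 0.519. Procr was not highest in epithelial cells, which ranked 2 and 6 of 23 names, and the highest other name reached 5.79 and 6.02. In suffix 2, 4 of 15 tested were called higher and 0 lower, beside 8.75% and 11% of all genes. Metabolic genes were less uniform. Car9, the carbonic anhydrase induced under hypoxia, stood at 2.80 and 5.62, against 0.105 and 0.128, and the lactate carrier Slc16a1 at 2.58 and 2.95, against 0.624 and 0.762, and the glycolytic regulator Pfkfb3 stood at 0.427 and 0.391, against 3.02 and 2.19. Of 8 tested genes of glycolysis and hypoxia, 2 were higher and 2 lower in suffix 1, and 3 and 2 in suffix 2. The shares over all genes were 16.9% and 12.1% in suffix 1, and 8.75% and 11% in suffix 2. In lipid and sterol metabolism 3 of 13 were higher (Fdps, Acsl3 and Elovl6) and 2 lower in suffix 1, and 3 and 1 in suffix 2, shares near those over all genes in suffix 1. The Fdps call in suffix 1 ended with calprotectin left out of the totals and with neutrophils left out of the other cells. None of 15 genes of oxidative phosphorylation and mitochondria passed a call in either suffix, nor did any of 10 of class I presentation and interferon response in suffix 1, where B2m stood at 118 against 75.5.

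Cell cycle genes had a higher summed level than in the other cells in both suffixes, but most single genes were called in suffix 1 alone or not at all. The summed level of 29 measured genes was 81.2 [79.6, 82.8] in epithelial cells of suffix 1, against 33.8 in all other cells, and 64.8 [62.4, 67.2] in suffix 2, against 44.4. In suffix 1, 11 of 29 tested were called higher and 2 lower, beside 16.9% and 12.1% of all genes. In suffix 2, 1 of 29 was higher and 0 lower, beside 8.75% and 11% of all genes. Cks1b, a cyclin-dependent kinase subunit, was higher in both, at 19.6 and 16.4 against 2.43 and 3.21. Tpx2 and Cenpf, a spindle and a kinetochore protein, stood at 2.60 and 2.52 in suffix 1, against 0.867 and 0.756, and at 2.16 and 1.63 in suffix 2, against 1.17 and 1.06. With calprotectin left out of the totals 7 were called higher in suffix 1, beside 393 of 3514 genes tested. With neutrophils left out of the other cells 3 were (Cdc20, Cks1b and Ect2), beside 345 of 3441, a share near that over all genes. Epithelial cells ranked 3 and 5 of 23 names for the summed level. The Macro_Mgl2 macrophages had a higher sum, 131 in both suffixes. In suffix 1, 9 of 27 tested genes were called lower in epithelial cells than in Macro_Mgl2 and 0 higher, beside 12.7% and 12.6% of all genes.

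The pair of genes called lower in that list, Cdkn2a and Cdkn2b, encode inhibitors of cyclin-dependent kinases and lie beside Mtap, which encodes a methionine salvage enzyme, on chromosome 4 (GRCm38, GENCODE M21). Mtap spans 89137122 to 89181081, Cdkn2a 89274471 to 89294653 and Cdkn2b 89306299 to 89311039. Mtap stood at 19.2 [18.4, 20.0] and 15.9 [14.7, 17.1] in epithelial cells, against 0.560 and 0.648 in all other cells, and no other name passed 1.35 in suffix 1 or 1.70 in suffix 2. It was found in 54.5% of thinned epithelial cells of suffix 1 and 47.6% of suffix 2, against 4.808% and 0% of fibroblasts. Cdkn2a had 1 UMI in the epithelial cells of each suffix, against 270 and 172 in all other cells, and its log2 ratio in suffix 1 was -3.54 [-8.84, -1.04]. Cdkn2b had 0 UMIs in the epithelial cells of both suffixes, against 231 and 90, with levels of 1.46 and 1.24 in fibroblasts. Low levels of both genes were shared by many names. Epithelial cells ranked 16 and 11 of 23 for Cdkn2a, and the median of the other names was 0.0588 in suffix 1 and 0.0104 in suffix 2. For Cdkn2b they ranked 19 and 14, with medians of 0.0428 and 0.0163. For the 0 counts of Cdkn2b the exact interval of the level reached up to 0.0303 in suffix 1 and 0.0849 in suffix 2. Gm12602, a noncoding transcript annotated just before Mtap at 89100664 to 89128226, had 28 and 9 UMIs in epithelial cells, against 0 and 1 in all others, and Tusc1, further along on the side of the pair, 5 and 1 UMIs, against 1030 and 336. Both sides held genes with and without a lower level. On the side of Mtap, Klhl9 stood at 2.44 and 2.28, against 1.29 and 1.43, with no call, and Hacd4 had 34 and 12 UMIs, against 6448 and 1829, and Ifnb1 3 and 1, against 1248 and 201. Beyond Tusc1, Caap1 stood at 0.657 and 0.506, against 0.575 and 0.618, with no call. Apart from Cdkn2a and Cdkn2b these genes were chosen after the values were seen.

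Fibroblasts, the other cells of the sort expected to lack CD45, were compared with epithelial cells directly. In suffix 1, 172 of 2411 genes were called higher in epithelial cells than in fibroblasts (7.13%) and 273 lower (11.3%), from 499 and 140 cells. Col3a1, a fibrillar collagen chain, had 14 UMIs at a level of 0.115 in epithelial cells of suffix 1 and 0.207 in suffix 2, against 574.5 and 640.3 in fibroblasts. Serping1, a complement inhibitor, had 0 UMIs in epithelial cells of both suffixes. With the 0 counted as 3 over the group, its log2 ratio in suffix 1 was -11.19, and the upper end of the exact interval was -10.89. Postn stood at 0.0411 and 0.115, against 64.7 and 76.5, and Tnc, tenascin C, at 0.452 and 0.760, against 53.8 and 57.8. The matrix gene Fn1, at 58.7 and 76.2 against 105 and 104, passed no call. Tnnt2, Wfdc2, Sfn, Fbxo2, Npnt, Glrp1, Lamb3 and Dyrk3 were furthest above fibroblasts by the naming rule, with Npnt at 0 UMIs in fibroblasts of both suffixes. S100a4 stood at 66.1 and 78.3 in epithelial cells, against 5.41 and 2.15 in fibroblasts. Of 26 tested cell cycle genes, 17 were called higher than in fibroblasts and 1 lower in suffix 1. In suffix 2, 5 of 15 were higher and 0 lower, beside 5.26% and 10.2% of all genes. The summed level of the 9 pan-leukocyte genes was 26.6 and 17.4 in epithelial cells, against 32.2 and 21.2 in fibroblasts.

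Macro_Mgl2 cells, the deepest name of suffix 1 with a median of 6227 UMIs, gave the contrast with a cycling myeloid type. Here 329 of 2620 genes were called higher in epithelial cells (12.6%) and 334 lower (12.7%) in suffix 1. By the naming rule Tnnt2, Fhl2, Npnt, Wfdc2, Tm4sf1, Lama5, Ccn1 and Bok were furthest above. Fhl2, a LIM-domain cofactor, stood at 6.26 and 6.10, against 0.00550 and 0.0208, and Ccn1, a matricellular protein, at 19.9 and 19.1, against 0.0330 and 0.333. Plxdc2, a plexin-domain receptor, was among the lowest, at 0.0822 and 0.0230 in epithelial cells, against 3.57 and 2.98. The mesenchymal genes Snai1, Id3, Mmp9, Vim and Tnc were called higher than in Macro_Mgl2 in suffix 1, and Snai1, Id3, Mmp9 and Thbs1 in suffix 2. Zeb2 and Pdpn were called lower in both, so the list gave 5 higher and 2 lower of 11 tested in suffix 1. In suffix 2 it gave 4 and 2 of 10, beside 10% and 11.1% of all genes.

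Depth split the epithelial cells into a shallow and a deep part, and some levels differed between them. A border of 4000 counted UMIs, set after seeing the distribution, put 109 cells in the deep part of suffix 1 with a median of 7073 UMIs, against 390 shallow cells with 613, and 48 against 58 in suffix 2. In suffix 1, 78 of 2029 genes were called higher in deep cells (3.84%) and 0 lower (0%), with a median log2 ratio of 0.39 over all genes tested, and the 44 and 1 called in suffix 2 shared 22 and 0 with them. Since the comparison splits 1 type by its own counts, it is a description. Ccn1 stood at 25.9 and 21.8 in deep cells, against 4.29 and 4.68 in shallow ones, Fn1 at 73.7 and 86.9, against 19.4 and 18.9, and Thbs1, thrombospondin, at 5.54 and 6.80, against 1.34 and 1.32. The immediate early genes Jun and Atf3 stood at 63.5 and 54.0 in deep cells of suffix 1, against 16.9 and 14.7, and at 45.4 and 43.1 in suffix 2, against 11.1 and 14.03. Lama5, Id3, Il1a, Tm4sf1 and Nfkb1 were also higher in deep cells of both suffixes. S100a8 was as well, at 125 and 23.8 against 23.99 and 8.62, but most of its UMIs lay in few cells. In suffix 1, 19 cells held 10569 of its 11818 UMIs, and in suffix 2, 2 cells held 738 of 930. Its level is therefore not read as a trait of the deep part. The part of other cells' transcripts in the differences between deep and shallow cells was not tested. Of the 10 tested laminin and integrin genes, 6 were called higher in deep cells of suffix 1 and 2 in suffix 2, with Lama5 in both. Over all genes, 3.84% and 3.87% were called higher. The Wfdc2, Fermt1 and Gpa33 sum, at 117 and 130 in deep cells against 78.0 and 108 in shallow ones, passed no call for any of the 3 genes. S100a6 stood at 432 and 479 in deep cells against 590 and 754 in shallow ones, and the sum of the oxidative phosphorylation genes at 170 and 182 against 232 and 240, with no call for any of these genes.

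Within the deep part the cell cycle sum was uneven. In suffix 1 it was 35.5 in the 66 cells of 4000 to under 8000 UMIs and 115 in the 43 cells of 8000 or more, and in suffix 2 41.9 in 31 cells and 88.1 in 17. Fn1 went the other way, at 112 in the first of these bins and 42.4 in the deepest of suffix 1, and at 107 and 65.8 in the same bins of suffix 2. The shallow bins of suffix 1 ranged from 69.0 to 111 in the cell cycle sum and from 7.59 to 37.4 in Fn1. Ptprc stayed between 1.26 and 3.598 in all bins of suffix 1, and S100a8 was highest in the deepest bin of suffix 1, at 187. Most S100a8 UMIs of suffix 1 lay in 19 cells, so that value can rest on few cells.

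**Figure D4:**
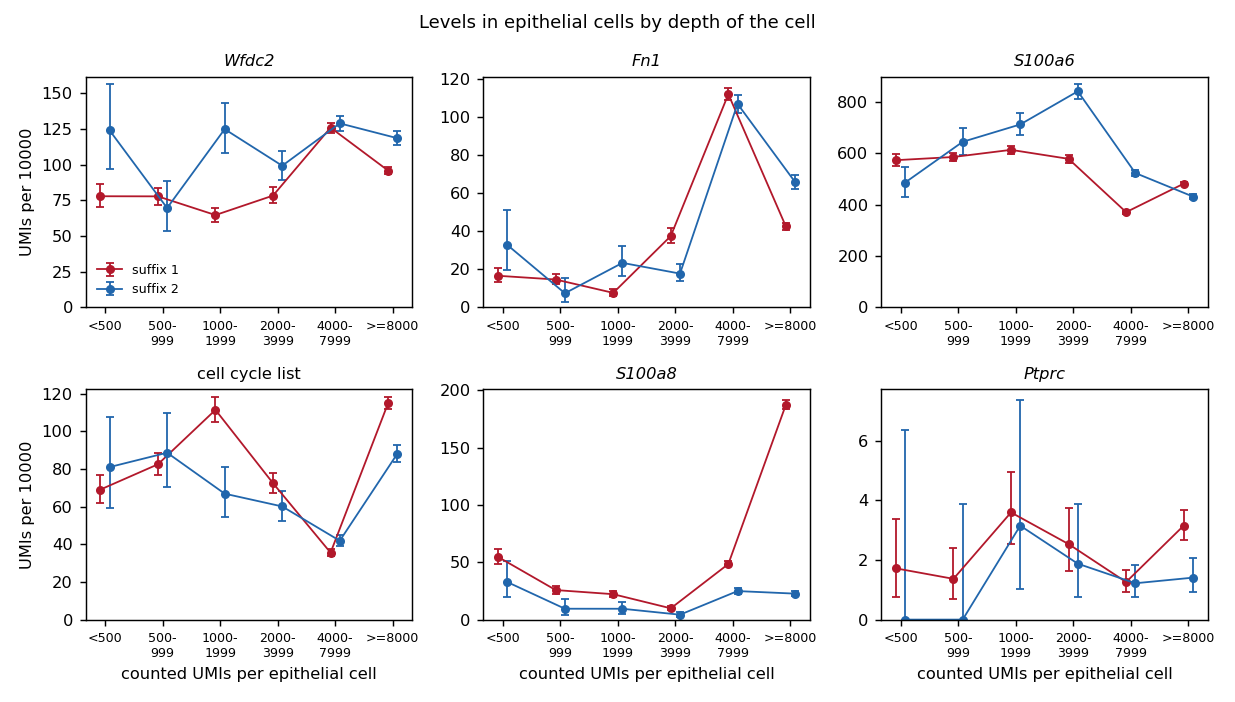
Level of 5 genes and of the summed cell cycle list (y axes, UMIs per 10000 counted UMIs, from 0) in epithelial cells binned by counted UMIs per cell (x axes), for suffixes 1 and 2, with exact Poisson 95% intervals. Fn1 peaks at 112 and 107 in the bin of 4000 to under 8000 UMIs, where the cell cycle sum is lowest at 35.5 and 41.9.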

How the data were processed

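The deposited table held UMI counts per gene and cell, and the values used were whole numbers of 0 or more, as the authors deposited them. A further deposited file named the cell type of each barcode. The submitters' processing notes name Cell Ranger, Seurat and GRCm38 (mm10) without roles or versions. How cells were named is not stated in the sources used here. The table's 4099 complete gene rows were used and 1 incomplete last row was left out, so UMI totals fall short of sequencing depth. The table has 16383 columns of cells, none of which a header or label ties to a sample.

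UMIs were summed per type and suffix. Levels had exact Poisson 95% intervals, ratios exact conditional binomial (Clopper-Pearson) ones and shares exact binomial ones. A 0 was given a floor of 3 counts over the group. Thinning drew 500 UMIs per cell without replacement. Genes were named by rule: the 24 highest and 12 lowest log2 ratios against all other cells, and 8 and 8 in each other comparison, among those called in suffix 1 with a ratio beyond 2-fold in the same direction in suffix 2 (10 or more UMIs there); the text names part of them, with list members in addition, and some genes are not reported here. The members and gene lists were chosen with earlier results of these data known. The interval calls were first tested on simulated data. Gene positions came from GENCODE M21 and promoters from RefSeq GRCm38.p6. Scripts ran on Python 3.11.15 with scipy 1.17.1, numpy 2.4.6, matplotlib 3.10.9 and pandas 2.3.3.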

Additional observations from a re-analysis of the deposited data

How the results depend on the processing

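Cells are the units behind every interval, so spread between tumours is not covered, and depth limits genes with few UMIs. No paired analysis was possible because no label ties a suffix to a sample and no test between groups was run. The calls against all other cells moved to 270 higher in suffix 2, to 393 higher with S100a8 and S100a9 left out of the totals, to 1602 higher and 957 lower where the interval had only to exclude 1-fold, and to 345 higher with neutrophils left out of the other cells, which was added after seeing the data. Against fibroblasts they moved to 81 higher and 157 lower in suffix 2, to 95 and 428 in UMIs per cell and to 98 higher in epithelial cells without a C1q UMI. Against Macro_Mgl2 they moved to 183 and 203 in suffix 2, to 151 and 1445 in UMIs per cell and to 185 higher without a C1q UMI. In UMIs per cell, which keeps the difference in depth, the median log2 ratio over all genes was 0.42 against all other cells, -0.48 against fibroblasts and -1.49 against Macro_Mgl2. For the deep cells, whose alternatives were added after seeing the data, the calls moved to 44 higher and 1 lower (Fabp5) in suffix 2 and to 2029 higher in UMIs per cell, by construction. The other alternatives stayed within 1.5 times the counts in the report, as did the share of suffix 2 within its interval, at 3.29% of barcodes with counts. Counts of calls were not run with equal weight of the other types or with the mean over cells of each cell's share, which have no interval. Of 144 single genes, named or called list members, many log2 ratios left their suffix 1 interval with the same sign. These were 99 in suffix 2, 80 without neutrophils, 74 with calprotectin left out of the totals and 72 without a C1q UMI. They were 82 of 137 with equal weight of the other types and 92 of 137 with the mean over cells, but 22 of 144 in UMIs per cell. The log2 ratio changed sign for Fap (0.0324), S100a4 (-0.17) and Cited4 (0.42) in suffix 2, and for Cdkn2b (0.0291) and Cited4 (0.24) in epithelial cells without a C1q UMI. Fap, Cdkn2b and, in suffix 1, Cited4 had 0 UMIs in epithelial cells, so the floor of 3 counts over fewer UMIs sets those values, and for S100a4 and for Cited4 in suffix 2 the cause was not tested.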

Other observations

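Some other genes of the epithelial cells belong to no comparison above. Lmna, the nuclear lamin A gene, stood at 41.98 in epithelial cells of suffix 1 and 40.7 in those of suffix 2, against 5.43 and 12.02 in all other cells. Anxa5, annexin A5, stood at 52.0 and 43.2, against 7.45 and 11.5. Gas5, a noncoding host of small nucleolar RNAs, stood at 42.3 and 53.5, against 13.1 and 15.7. The thiol peroxidase gene Prdx1 stood at 39.1 and 37.8, against 15.0 and 20.7, and was called higher in suffix 1 alone, and Mgst3, a microsomal glutathione transferase, at 5.57 and 4.63, against 0.953 and 1.85. The cystine carrier gene Slc7a11 was called lower in both suffixes, at 0.945 and 1.01 against 3.13 and 3.26. Endoglin, Eng, a surface receptor used as an endothelial marker, was called higher in both suffixes, at 1.41 and 1.08 against 0.210 and 0.340. Of the 5 endothelial markers measured, Tie1 was also called higher in suffix 1, with 21 UMIs against 41 in all other cells, Selp was called lower there, with 4 against 943, and Emcn and Tal1 had 0 UMIs in epithelial cells of both suffixes. Lmna, Anxa5 and Gas5 were chosen after their values were seen.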
